A study of Homo sapiens with 21 samples.

Results

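The genes described here are 47 genes of the integrated stress response, the programme of the transcription factor ATF4. They comprise ATF4 itself, the factors that act with it or against it, and its targets in amino acid synthesis, amino acid transport, tRNA charging and feedback control. They were taken by symbol from the 60728 gene identifiers of the expression table, and all 47 were among the 18584 genes that passed the filter on low values. The set was chosen by the measured rise of SESN2 over Control, which was among the largest in these libraries, so the values of SESN2 are given as a description without a test, and counts are over the 46 other genes. The libraries come from SK-N-BE(2), an established human neuroblastoma cell line, 72 h after lentiviral transduction with shRNA plasmids. There are 7 labelled conditions with 3 libraries each. Control carries a non-silencing shRNA. The label shARID1A stands on the conditions shARID1A.2 and shARID1A.4, the label shARID1B on shARID1B.2 and shARID1B.3, and the label shARID1A/B on shARID1A/B.2.3 and shARID1A/B.4.2. ARID1A and ARID1B are alternative subunits of the BAF chromatin remodelling complex, and the question asked of these genes is whether the ATF4 programme as a whole rises when they are silenced. All conditions share 1 cell line, the Control libraries carry a vector too, and nothing in the labels says that the 3 libraries of a condition came from separate cultures, so p-values measure the spread between these libraries, which may be technical.

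In the integrated stress response, kinases that sense amino acid shortage, unfolded protein in the endoplasmic reticulum, haem deficiency or double-stranded RNA phosphorylate the translation factor eIF2. Most translation then slows, while the mRNA of ATF4 is translated more. ATF4 pairs with C/EBP family proteins on composite DNA elements and switches on genes that supply the cell with amino acids and glutathione, and, when stress lasts, genes of growth arrest and cell death. Since ATF4 is set mainly at translation, the targets are a closer readout of its activity in RNA data than the ATF4 transcript.

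The targeted genes did not follow the labels, which are used here as written. In Control, ARID1A had 6097, 6374 and 6463 normalised reads and ARID1B 5791 to 5804. In the libraries labelled shARID1A.2 and shARID1A.4 both genes were low, with ARID1A at 2109 to 2169 and 2157 to 2289 and ARID1B at 2224 to 2252 and 3065 to 3126. In those labelled shARID1B.2 and shARID1B.3 it was ARID1A that was low, at 1882 to 1962 and 2450 to 2507, while ARID1B was at 4913 to 5056 and 6038 to 6182. In those labelled shARID1A/B.2.3 and shARID1A/B.4.2 it was ARID1B that was low, at 2540 to 2651 and 1881 to 1955, while ARID1A was at 5510 to 5752 and 5352 to 5589. Every direction below is therefore that of libraries labelled so, and the gene that is low is repeated where it matters. Within each label the knockdown was shallower in 1 condition: ARID1B was higher in shARID1A.4 than in shARID1A.2 by 0.47 ± 0.02 on the log2 scale and higher in shARID1A/B.2.3 than in shARID1A/B.4.2 by 0.45 ± 0.02, and ARID1A was higher in shARID1B.3 than in shARID1B.2 by 0.37 ± 0.03 (SE, limma adjusted p = 2.0e-15, 5.8e-15 and 3.3e-11).

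**Figure D1:**
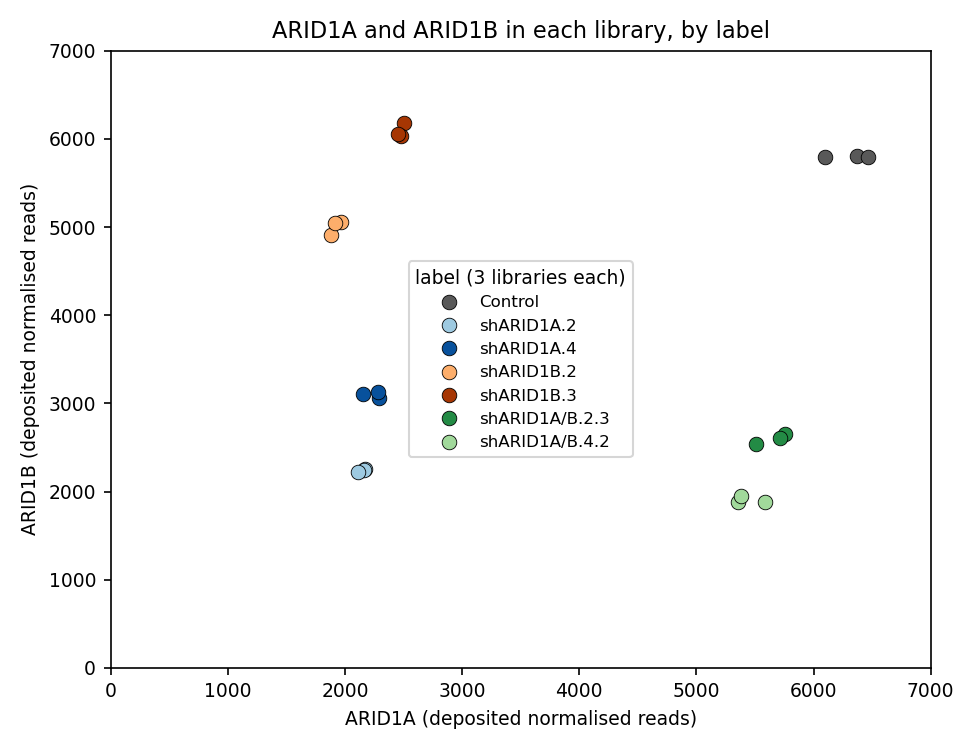
Normalised reads of ARID1A (horizontal) and ARID1B (vertical) in each of the 21 libraries, coloured by label. The shARID1A libraries lie low on both axes, the shARID1B libraries low on the ARID1A axis alone and the shARID1A/B libraries low on the ARID1B axis alone.

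Many ATF4 targets carry the composite element, whose core was searched here as TGATGNAA on both strands of the 300 bases around each start site (250 before and 50 after) in RefSeq promoter windows of build GRCh38.p14. Windows were found for 38 of the 47 genes, and no window was matched for NUPR1, EIF4EBP1, PSPH, GPT2, SHMT2, ALDH1L2, SLC7A11, LARS1 and YARS1. The core was present for 14 of the 38 genes (36.8%) and for 1212 of 27058 genes overall (4.48%). The palindromic cyclic AMP response element TGACGTCA, another site of the ATF family that does not overlap the core in sequence, was present for 1 of the 38 (PPP1R15A, 2.63%) against 606 overall (2.24%). A match is a description of letters and no evidence of binding. The 47 genes were listed as genes of the ATF4 programme, so a larger share with its element can follow from that choice. Shown are the 30 bases around the match for the 6 genes with the largest log2 fold changes in shARID1A.4 whose match lies wholly ahead of the start site, since they include the strongest responders described below. Each is read 5′ to 3′ on the strand on which it spells the core, in capitals:
CHAC1, chr15:40953251-40953280, minus strand: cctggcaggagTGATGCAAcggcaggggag
ASNS, chr7:97872458-97872487, minus strand: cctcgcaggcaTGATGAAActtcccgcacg
ATF3, chr1:212565205-212565234, plus strand: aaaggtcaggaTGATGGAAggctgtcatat
HERPUD1, chr16:56931955-56931984, minus strand: tgggcacgggcTGATGCAAcccgccgcgtc
GARS1, chr7:30594834-30594863, minus strand: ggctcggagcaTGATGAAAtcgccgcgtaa
AARS1, chr16:70289675-70289704, plus strand: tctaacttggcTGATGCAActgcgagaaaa
The core began 209, 68, 191, 176, 33 and 187 bases ahead of the start site, in that order. The start site is that of the RefSeq window, and by the gene coordinates of GENCODE release 29 the stretches of CHAC1, ASNS and GARS1 lie inside the gene. The other holders were CEBPG, IARS1, MARS1, NARS1, SLC1A5, SLC3A2, SLC7A1 and TARS1. SESN2, DDIT4, TRIB3, DDIT3 and PSAT1 had a window without the core.

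The programme rose in 1 of the 2 conditions of each label and not in the other. In the libraries labelled shARID1A.4, 42 of the 46 genes were called higher and 3 lower than Control (limma, Benjamini-Hochberg adjusted p under 0.05), where 37.0% of all genes tested were higher and 36.6% lower (73.6% in either direction). In those labelled shARID1B.3, 39 were higher and 5 lower, against 31.9% and 32.0% of all genes (63.9%). In those labelled shARID1A/B.2.3, 41 were higher and 2 lower, against 35.2% and 34.0% (69.2%). The other condition of each label went the other way. In shARID1A.2, 9 were higher and 30 lower (all genes 37.9% and 38.2%, 76.1% in either direction), in shARID1B.2, 10 were higher and 31 lower (31.6% and 34.0%, 65.6%), and in shARID1A/B.4.2, 11 were higher and 32 lower (35.1% and 36.1%, 71.2%). Total-read scaling changed these counts to 17 higher and 21 lower in shARID1A/B.4.2 and to 14 higher in shARID1A.2. The difference between the conditions of a label was tested directly and is given further on. All 6 comparisons share the 3 Control libraries.

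Changes of 1 or more on the log2 scale, which is 2-fold, separated the conditions further. Higher by that much were 26 of the 46 genes in shARID1A.4 (56.5%, against 9.32% of all genes), 22 in shARID1A/B.2.3 (47.8%, against 7.04%) and 11 in shARID1B.3 (23.9%, against 5.2%). Higher by that much were 1 in shARID1A.2 (14.1% of all genes), 2 in shARID1B.2 (6.86%) and 1 in shARID1A/B.4.2 (10.3%). Lower by that much were 9, 5 and 5 genes in shARID1A.2, shARID1B.2 and shARID1A/B.4.2, against 10.7%, 5.12% and 8.14% of all genes. In shARID1A.4, shARID1B.3 and shARID1A/B.2.3 it was 1 gene each, CTH, CTH and SESN3, against 12.0%, 6.58% and 9.1%.

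The median log2 fold change of the 46 genes, taken in each library against the Control mean, was 1.19 ± 0.01 in shARID1A.4, 0.97 ± 0.02 in shARID1A/B.2.3 and 0.66 ± 0.02 in shARID1B.3 (SD, n = 3). It was -0.29 ± 0.02 in shARID1A.2, -0.27 ± 0.01 in shARID1B.2 and -0.21 ± 0.02 in shARID1A/B.4.2. The median of all genes tested lay between 0.01 and 0.02 in each of these comparisons. The size of the lower medians moved with the scaling of the libraries. Under scaling to total reads the median of all genes moved to 0.19, 0.15 and 0.20 in shARID1A.2, shARID1B.2 and shARID1A/B.4.2. That of the 46 genes moved to -0.13, -0.14 and -0.02, so relative to all genes it stayed at -0.32, -0.28 and -0.22. Over all genes, that scaling also moved the share of calls that were higher from 49.8% to 61.2%, from 48.1% to 63.0% and from 49.3% to 64.8%.

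**Figure D2:**
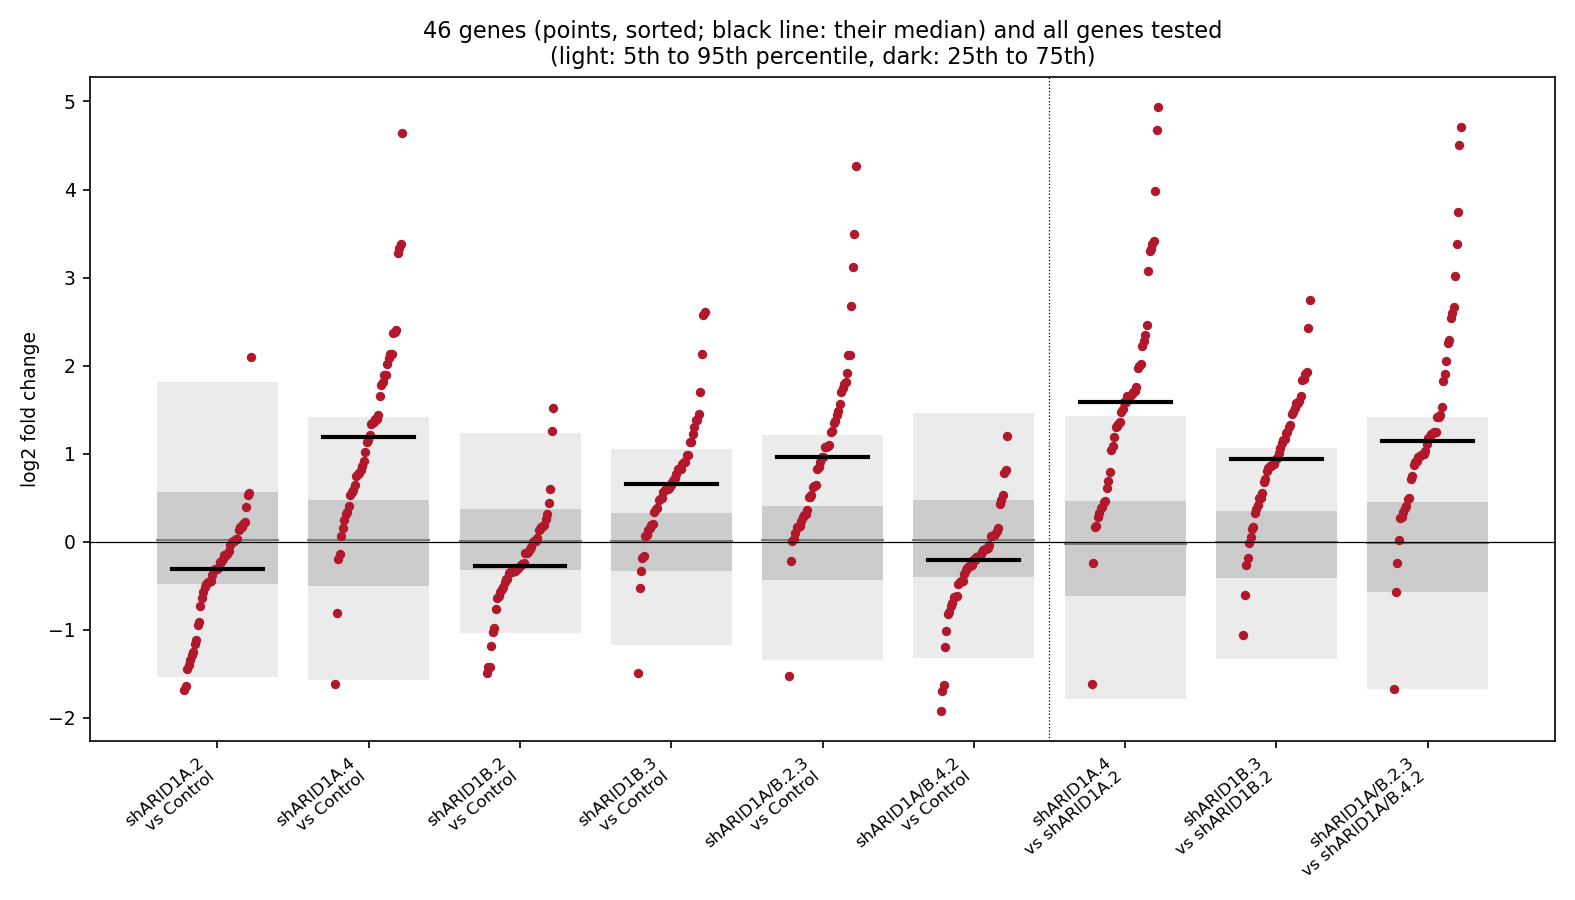
Log2 fold change of the 46 genes other than SESN2 (points, sorted within each comparison, black line at their median) over all genes tested (grey, 5th to 95th and 25th to 75th percentiles), for the 6 comparisons with Control and, right of the dotted line, the 3 between conditions of a label. The medians lie at 1.19, 0.66 and 0.97 in shARID1A.4, shARID1B.3 and shARID1A/B.2.3, and between -0.31 and -0.21 in the other conditions.

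The conditions with a raised programme do not share which ARID1 gene is low: both are low in shARID1A.4, ARID1A in shARID1B.3 and ARID1B in shARID1A/B.2.3. The same holds for the others. In each label the raised condition was the one with the shallower knockdown given above, and the part of knockdown depth in the difference was not tested. The ranges of the library medians of the raised conditions did not overlap, with shARID1A.4 highest and shARID1B.3 lowest, but differences among these conditions were not tested.

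**Figure D3:**
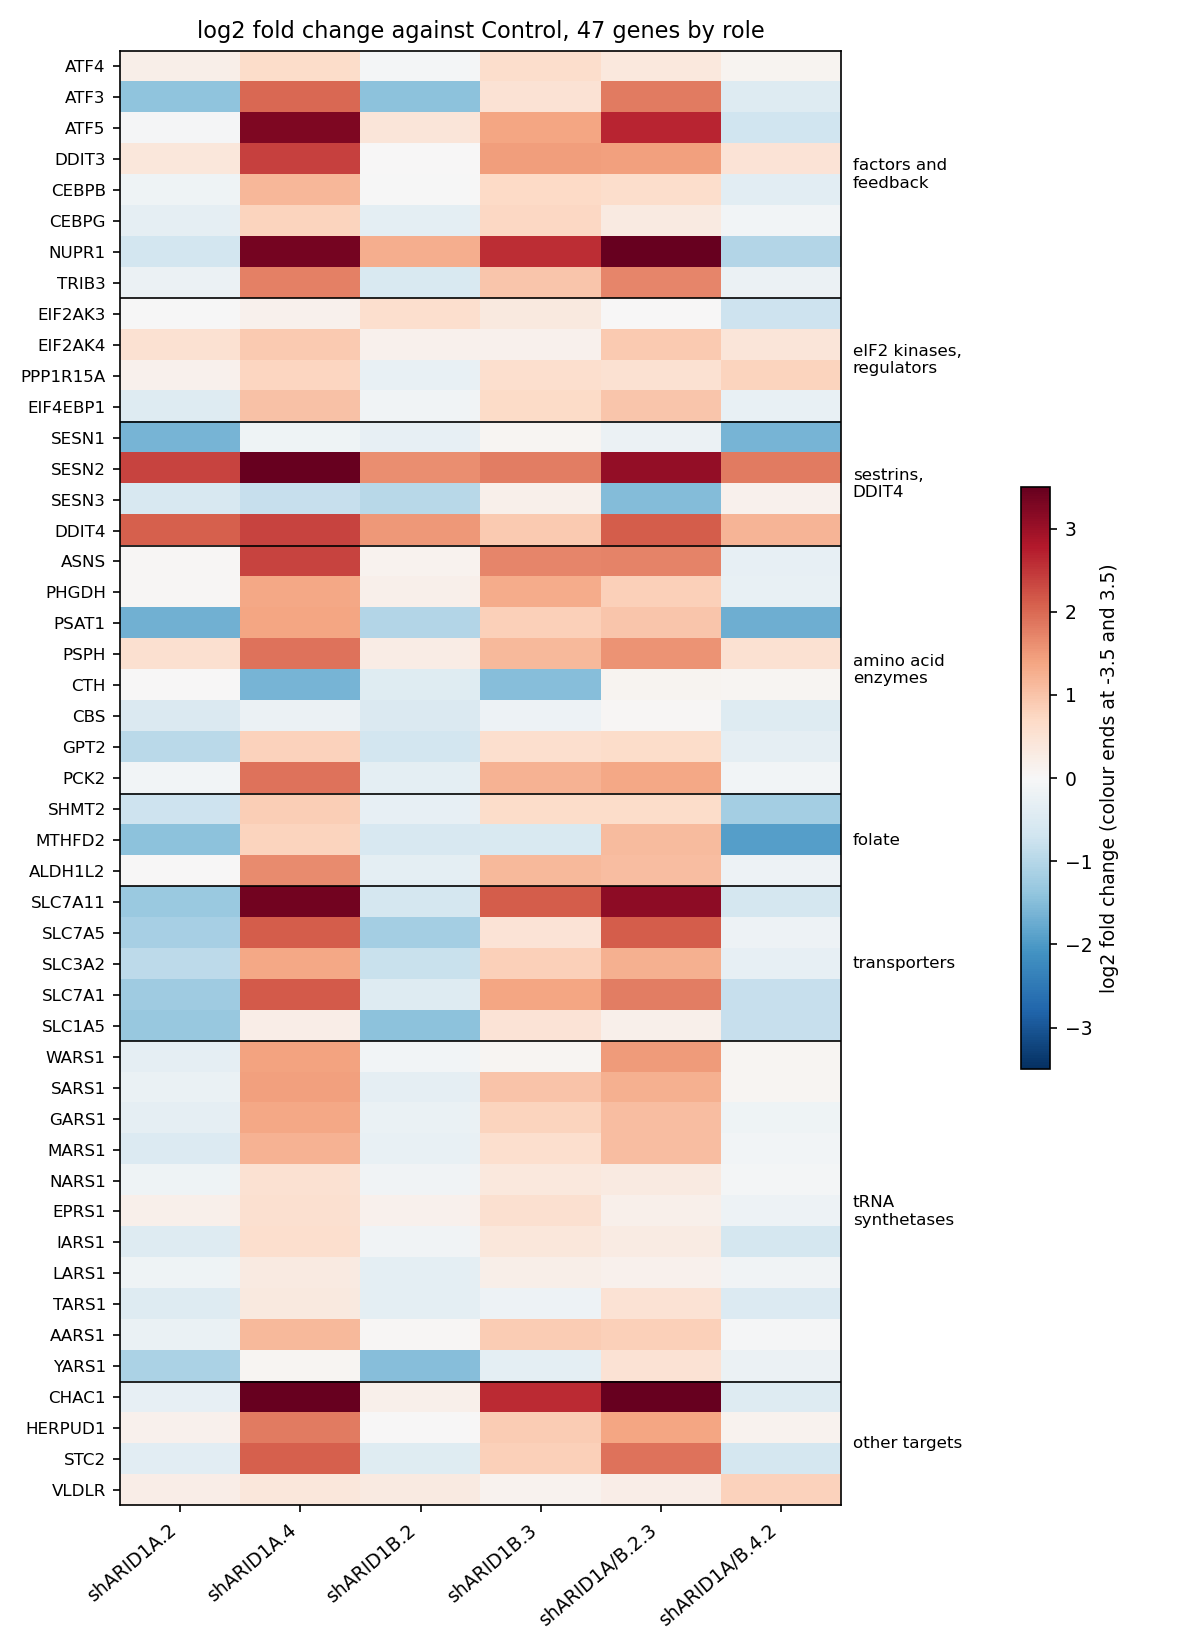
Log2 fold change against Control of the 47 genes (rows, by role) in the 6 silenced conditions (columns), red for higher and blue for lower, with the colour ending at 3.5 in either direction. Columns shARID1A.4, shARID1B.3 and shARID1A/B.2.3 are mostly red in every role but the sestrins, while DDIT4 and SESN2 are red in all 6 columns.

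Among the transcription factors and their feedback regulators, all 8 rose in each of shARID1A.4, shARID1B.3 and shARID1A/B.2.3. Of all genes tested, 37.0%, 31.9% and 35.2% were higher there. The ATF4 transcript (chr22:39519695-39522685, GRCh38, GENCODE release 29) had the highest level per kilobase of exon of the 47 genes in Control. It had 14224 to 14703 normalised reads in Control and 22249 to 23393 in shARID1A.4. In shARID1B.3 it had 21835 to 22570 and in shARID1A/B.2.3 18350 to 18637. These groups did not overlap with Control, and the log2 fold changes were 0.65 ± 0.02, 0.61 ± 0.02 and 0.36 ± 0.02 (SE, limma adjusted p = 2.4e-19, 2.1e-18 and 5.7e-14). It had 16584 to 16635 reads in shARID1A.2, 13777 to 13880 in shARID1B.2 and 15057 to 15478 in shARID1A/B.4.2. The ranges in shARID1A.2 and shARID1A/B.4.2 also lay above that of Control, although most of the programme was not raised there. The log2 fold change of ATF4 in shARID1B.2, -0.06, changed sign under 2 of the scalings tried.

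ATF5, a related factor whose mRNA is likewise controlled at translation, went from 467, 471 and 439 reads in Control to 4561, 4440 and 4380 in shARID1A.4 and 2931, 2962 and 2941 in shARID1A/B.2.3. In shARID1B.3 it had 1230, 1186 and 1182. These are log2 fold changes of 3.28, 2.68 and 1.38, each with an SE of 0.04. It was called lower in shARID1A/B.4.2, at 275 to 289 reads.
DDIT3, which encodes CHOP, a factor linked to cell death under lasting stress, had 477 to 516 reads in Control. It had 2490 to 2730 in shARID1A.4, 1300 to 1388 in shARID1B.3 and 1309 to 1400 in shARID1A/B.2.3. Smaller rises were called in shARID1A.2 (log2 fold change 0.39 ± 0.04) and shARID1A/B.4.2 (0.47 ± 0.04), while shARID1B.2 was at 0.01 (adjusted p = 0.85). Exons of DDIT3 overlap those of MARS1 on the opposite strand, and whether the counting used strand is not given in the sources used here.

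TRIB3, a pseudokinase that restrains ATF4, had 547 to 594 reads in Control, 1931 to 2039 in shARID1A.4, 1855 to 1886 in shARID1A/B.2.3 and 1069 to 1241 in shARID1B.3. It was at 465 to 526, 359 to 419 and 491 to 508 in the other condition of each label, all called lower than Control by 0.20 to 0.54 on the log2 scale. ATF3, a stress-induced factor, had 179 to 219 reads in Control, 787 to 869 in shARID1A.4, 683 to 722 in shARID1A/B.2.3 and 268 to 295 in shARID1B.3. It fell to 68 to 87 in shARID1A.2 and to 68 to 85 in shARID1B.2, log2 fold changes of -1.40 and -1.43. NUPR1, a small stress-response regulator, was scarce in Control, at 11 to 22 reads, and had 162 to 178, 87 to 112 and 178 to 205 reads in the raised conditions. Its SE of 0.32 was the widest of the 46 genes. CEBPB and CEBPG, partners of ATF4, rose less, by 1.16 and 0.77 in shARID1A.4.

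The kinases and the regulators of eIF2 gave no common direction in the other conditions. EIF2AK4, which encodes GCN2, the amino acid sensor, was called higher in all 6 conditions. It went from 2104 to 2252 reads in Control to 4017 to 4168 in shARID1A.4 and 3924 to 4319 in shARID1A/B.2.3, log2 fold changes of 0.92 and 0.91 with an SE of 0.03. In shARID1B.2 and shARID1B.3 it was 0.16 and 0.15. EIF2AK3, which encodes PERK, the sensor of the endoplasmic reticulum, was highest in shARID1B.2, at 1489 to 1520 reads against 965 to 1013 in Control, and lowest in shARID1A/B.4.2, at 571 to 634. PPP1R15A encodes GADD34, the phosphatase subunit that reverses eIF2 phosphorylation. It rose in 5 conditions by 0.14 to 0.78 and fell in shARID1B.2 by 0.26, and its 1317 to 1345 reads in shARID1A/B.4.2, where most of the programme was not raised, overlapped the 1266 to 1324 in shARID1A.4. EIF4EBP1, the repressor of cap-dependent translation, rose by 1.02, 0.68 and 0.96 in shARID1A.4, shARID1B.3 and shARID1A/B.2.3.

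The sestrins split. SESN2 (chr1:28259527-28282491, GRCh38), a leucine sensor that restrains mTORC1 and a known target of ATF4, p53 and NRF2, had 235, 224 and 239 reads in Control. It had 1159, 1222 and 1213 in shARID1A.2, 2672, 2772 and 2585 in shARID1A.4, 718, 733 and 715 in shARID1B.2, and 808, 811 and 813 in shARID1B.3. It had 1963, 1963 and 1991 in shARID1A/B.2.3 and 823, 831 and 796 in shARID1A/B.4.2. All 6 conditions lie above Control, by log2 fold changes of 2.36, 3.52, 1.63, 1.80, 3.08 and 1.81. So SESN2 was high also in the conditions where the median of the other genes was below 0. Between the conditions of a label its difference was 1.16 for shARID1A, 1.27 for shARID1A/B and 0.17 for shARID1B.

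DDIT4 (chr10:72273920-72276036), which encodes REDD1, another stress-induced brake on mTORC1, was likewise above Control throughout. It had 2456 to 2662 reads in Control and 10774 to 11131, 13129 to 13416, 7219 to 7389, 4671 to 4945, 10886 to 11237 and 5830 to 5918 in the 6 conditions in the order above. It was called higher in each, by 2.10, 2.38, 1.51, 0.90, 2.12 and 1.20, with an SE of 0.03 (limma adjusted p from 3.1e-28 to 1.1e-19). It was lower in shARID1B.3 than in shARID1B.2, by 0.61 ± 0.03. DDIT4, EIF2AK4, PSPH and VLDLR were the 4 of 46 genes called higher in all 6 conditions, against 6.52% of all genes tested. No gene of the 46 was called lower in all 6, against 7.54%.

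SESN1, a p53 and FOXO target, had 441 to 517 reads in Control and fell to 145 to 162 in shARID1A.2 and 149 to 160 in shARID1A/B.4.2, log2 fold changes of -1.64 ± 0.07 and -1.63 ± 0.07. In shARID1A.4 and shARID1B.3 it was at 423 to 445 and 477 to 535 reads, with adjusted p of 0.079 and 0.33 by limma. SESN3, a FOXO target with 7209 to 7503 reads in Control, was lowest in shARID1A/B.2.3, at 2419 to 2684 (log2 fold change -1.52 ± 0.05). It also fell in shARID1A.2, shARID1A.4 and shARID1B.2, and was slightly higher in shARID1B.3 and shARID1A/B.4.2, by 0.18 and 0.15. Of the sestrins, SESN2 alone had values above Control in all 6 conditions.

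**Figure D4:**
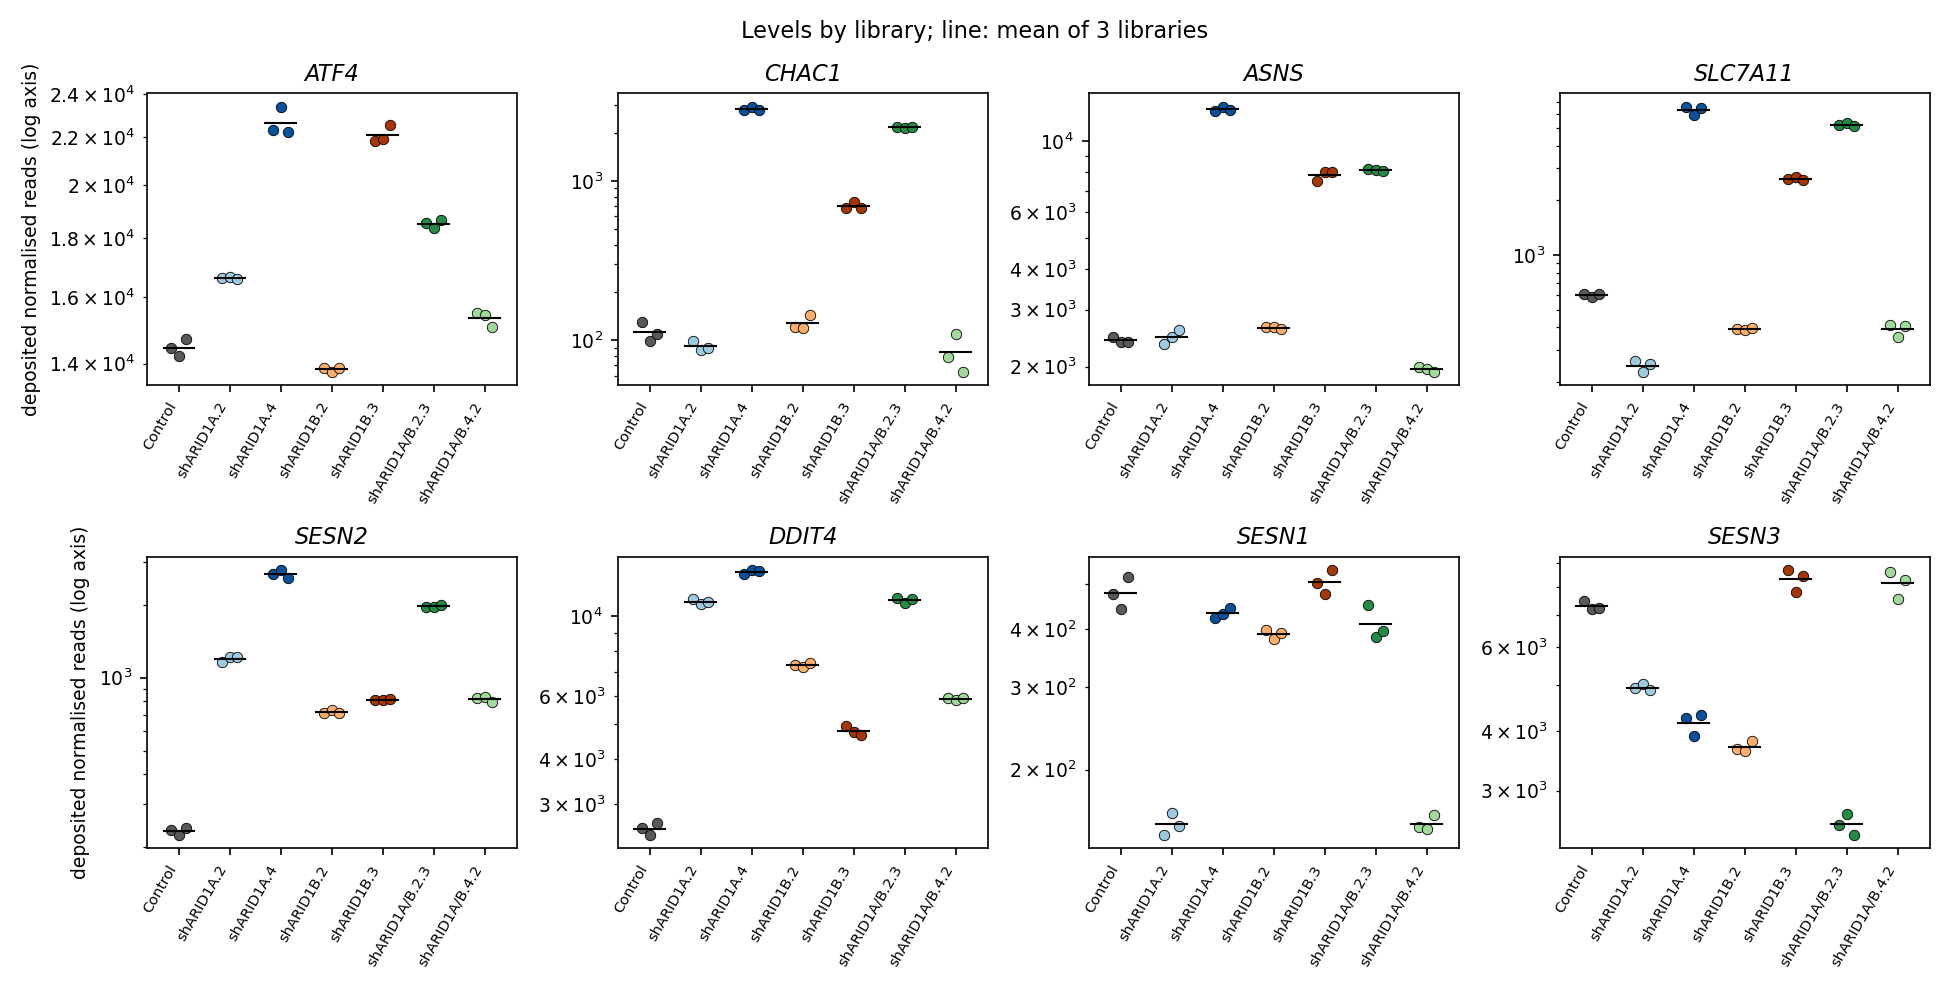
Normalised reads of 8 genes in each library on log axes, by labelled condition, with a line at the mean of 3 libraries. ATF4, CHAC1, ASNS and SLC7A11 are highest in shARID1A.4, shARID1B.3 and shARID1A/B.2.3, SESN2 and DDIT4 are above Control in all 6 conditions, and SESN1 and SESN3 are not raised with them.

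Of the 8 enzymes of amino acid synthesis and conversion, 6 rose in each of the raised conditions. The share of all genes higher was 37.0% in shARID1A.4, 31.9% in shARID1B.3 and 35.2% in shARID1A/B.2.3. ASNS (chr7:97852118-97872542), asparagine synthetase and the classical ATF4 target, had 2470, 2388 and 2383 reads in Control and 12341, 12748 and 12500 in shARID1A.4. It had 7504, 8034 and 8008 in shARID1B.3 and 8152, 8120 and 8064 in shARID1A/B.2.3. The other condition of each label lay at 2346 to 2586, 2620 to 2649 and 1928 to 1994 reads, at or near Control. The log2 fold changes were 2.38, 1.70 and 1.75 in the raised conditions, with an SE of 0.03, and 0.03 (adjusted p = 0.39), 0.13 and -0.30 in the others.

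The serine pathway followed, with a difference among its 3 enzymes. PHGDH, the first enzyme, rose from 9574 to 9977 reads in Control to 24622 to 25058 in shARID1A.4 and 23664 to 24676 in shARID1B.3, and to 17263 to 17779 in shARID1A/B.2.3. PSAT1, the second enzyme, rose in the same conditions by 1.39, 0.82 and 0.97. It fell to about the same low level in shARID1A.2 and shARID1A/B.4.2, from 8769 to 8905 reads in Control to 2682 to 2819 and 2699 to 2761, and to 4246 to 4513 in shARID1B.2. PSPH, the last enzyme, rose in all 6, from 666 to 711 reads to between 794 and 2584. GPT2, an alanine aminotransferase, and PCK2, the mitochondrial PEP carboxykinase, rose in the raised conditions, PCK2 by 1.90, 1.22 and 1.35.

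The transsulfuration enzymes did not. CTH, which makes cysteine, had 89 to 124 reads in Control and fell to 28 to 38 in shARID1A.4 and 32 to 40 in shARID1B.3 (log2 fold changes -1.61 and -1.49, SE 0.15). It was at 100 to 125 in shARID1A/B.2.3 (0.10, adjusted p = 0.57). CBS, the enzyme ahead of it, fell by 0.19 in shARID1A.4 and shARID1B.3 and by 0.46 to 0.52 in shARID1A.2, shARID1B.2 and shARID1A/B.4.2. CBS has a near-identical copy in the annotation, so its count is uncertain.

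The mitochondrial folate enzymes take the one-carbon units of serine. SHMT2 and ALDH1L2 rose in all 3 raised conditions, by 0.86, 0.64 and 0.63 and by 1.66, 1.13 and 1.07. MTHFD2 rose from 7949 to 8034 reads in Control to 13504 to 13910 in shARID1A.4 and 17020 to 17341 in shARID1A/B.2.3. It fell in shARID1B.3 to 5456 to 5684 reads, by 0.52 ± 0.02, which was not told apart from shARID1B.2 (difference 0.05, limma adjusted p = 0.077). The lowest level of MTHFD2 was 2084 to 2154 reads in shARID1A/B.4.2.

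The amino acid transporters showed the pattern most evenly. All 5 rose in shARID1A.4, shARID1B.3 and shARID1A/B.2.3, where 37.0%, 31.9% and 35.2% of all genes were higher. All 5 fell in shARID1A.2, shARID1B.2 and shARID1A/B.4.2, where 38.2%, 34.0% and 36.1% of all genes were lower. SLC7A11 (chr4:138164097-138242349), the cystine importer xCT, had 612, 585 and 608 reads in Control. It had 6568, 5890 and 6435 in shARID1A.4, 2620, 2683 and 2603 in shARID1B.3, and 5217, 5360 and 5129 in shARID1A/B.2.3. It had 228 to 259 in shARID1A.2, 386 to 397 in shARID1B.2 and 355 to 413 in shARID1A/B.4.2. No group overlapped with Control, and the log2 fold changes were 3.38, 2.13 and 3.12 against -1.29, -0.62 and -0.62, with an SE of 0.05.

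SLC7A5 and SLC3A2 encode the 2 chains of the large neutral amino acid exchanger. SLC7A5 went from 7474 to 7760 reads in Control to 33093 to 33868 in shARID1A.4 and 32810 to 33647 in shARID1A/B.2.3, but only to 10277 to 10813 in shARID1B.3. SLC3A2, which is also a chain of xCT, rose by 1.36, 0.83 and 1.25. SLC7A1, a carrier of cationic amino acids, rose by 2.13, 1.38 and 1.80. SLC1A5, the glutamine carrier ASCT2, rose by 0.24, 0.48 and 0.18 and fell by 1.34, 1.43 and 0.82, so that its difference within a label lay mostly in the fall. The fall of SLC7A5 in shARID1A/B.4.2, of 0.16, changed sign under total-read scaling.

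The 11 aminoacyl-tRNA synthetases, which load amino acids onto tRNA, moved less. All 11 rose in shARID1A.4 and in shARID1A/B.2.3 and 8 rose in shARID1B.3, against 37.0%, 35.2% and 31.9% of all genes. In shARID1A.2, shARID1B.2 and shARID1A/B.4.2, 10, 9 and 8 were called lower, against 38.2%, 34.0% and 36.1% of all genes. Under total-read scaling NARS1 and LARS1 changed sign in shARID1A.2, WARS1, NARS1 and IARS1 in shARID1B.2, and GARS1, MARS1, NARS1, EPRS1 and LARS1 in shARID1A/B.4.2. Rises of 1 or more were those of WARS1, SARS1, GARS1 and MARS1 in both shARID1A.4 and shARID1A/B.2.3 and of AARS1 in shARID1A.4. SARS1, the seryl enzyme, had 5155 to 5473 reads in Control, 14018 to 15050 in shARID1A.4, 10231 to 10669 in shARID1B.3 and 12463 to 12720 in shARID1A/B.2.3. WARS1, the tryptophanyl enzyme, rose by 1.39 and 1.48 in shARID1A.4 and shARID1A/B.2.3 but was at 0.06 in shARID1B.3 (adjusted p = 0.053). YARS1 and TARS1 were lower in shARID1B.3, by 0.33 and 0.17, and YARS1 fell by 1.12 in shARID1A.2 and 1.49 in shARID1B.2. NARS1, EPRS1, IARS1, LARS1 and TARS1 reached 1 in size in no condition, and the largest among them was -0.63, for IARS1 in shARID1A/B.4.2.

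The last 4 genes include CHAC1, which had the largest log2 fold change of the 46 genes in each of shARID1A.4, shARID1B.3 and shARID1A/B.2.3. CHAC1 (chr15:40952962-40956519), which breaks down glutathione, had 130, 100 and 110 reads in Control. It had 2803, 2927 and 2780 in shARID1A.4, 673, 737 and 674 in shARID1B.3 and 2197, 2161 and 2183 in shARID1A/B.2.3. The log2 fold changes were 4.64, 2.61 and 4.26 with an SE of 0.13. The other conditions had 87 to 100, 119 to 145 and 64 to 110 reads, which are log2 fold changes of -0.29, 0.18 (limma adjusted p = 0.20) and -0.45. STC2, a secreted glycoprotein, rose by 2.08, 0.82 and 1.91, and HERPUD1, a component of endoplasmic reticulum-associated degradation, by 1.82, 0.88 and 1.37. VLDLR, a lipoprotein receptor, was called higher in all 6 conditions and most in shARID1A/B.4.2, by 0.82 ± 0.04.

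The conditions of a label were then compared with each other. The direction of each difference below was chosen after the values were seen, as the raised condition minus the other. In shARID1A.4 against shARID1A.2, 44 of the 46 genes were higher and 2 lower, against 37.3% and 38.4% of all genes (75.8% in either direction). In shARID1B.3 against shARID1B.2 it was 40 and 4 (33.0% and 33.0%, 66.0%). In shARID1A/B.2.3 against shARID1A/B.4.2 it was 42 and 3 (37.1% and 37.8%, 74.9%). Higher by 1 or more were 33, 22 and 25 genes, against 9.56%, 5.2% and 9.57% of all genes, and lower by 1 or more 1 gene in each, against 14.3%, 8.48% and 12.7%. The median differences were 1.58, 0.94 and 1.14. Scaling to total reads moved the share of all calls that were higher, which was even in the comparison of shARID1B and 49.3% and 49.6% in those of shARID1A and shARID1A/B, to 39.2%, 39.2% and 38.6%, and the medians of the 46 genes to 1.43, 0.83 and 0.99.

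These 3 comparisons use separate libraries but may share shRNAs. The authors describe single shRNAs and combinations of shRNAs against both genes. The 3 comparisons can therefore not be taken as independent repeats. In all 3, 38 of the 46 genes were called higher (82.6%), where 15.4% of all genes tested were, and 16 were higher by 1 or more, where 1.12% were. None was lower in all 3, where 13.3% were, or lower by 1 or more, where 1.86% were. The 16 genes were CHAC1, SLC7A11, ASNS, PSAT1, PHGDH, ATF3, NUPR1, TRIB3, PCK2, ALDH1L2, STC2, SLC7A5, SLC7A1, SLC3A2, SARS1 and GARS1. The genes not higher in all 3 were CTH, DDIT4, EIF2AK3, EIF2AK4, MTHFD2, PPP1R15A, SESN3 and VLDLR. Called in opposite directions against Control by the conditions of a label were 27 genes for shARID1A, 24 for shARID1B and 30 for shARID1A/B, against 17.1%, 14.5% and 18.5% of all genes.

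The labels were also compared with each other, each as the average of its conditions. The median difference of the 46 genes was 0.19 between shARID1A and shARID1B, 0.06 between shARID1A and shARID1A/B and 0.17 between shARID1A/B and shARID1B. Of the 46 genes, 29, 25 and 29 were called higher (34.6%, 30.5% and 35.1% of all genes) and 9, 17 and 14 lower (32.8%, 28.7% and 35.0%, or 67.3%, 59.2% and 70.2% in either direction). Higher by 1 or more were 1, 0 and 4 genes, against 3.09%, 1.5% and 4.24% of all genes, and lower by 1 or more was none, against 2.94%, 2.13% and 3.79%. Each average joins conditions whose values lie apart.

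Genes near the programme that are not among the 47 show how far the pattern reached. Of 20 further ATF4 targets, 19 could be tested. In shARID1A.4, 14 were higher and 5 lower (all genes 37.0% and 36.6%), in shARID1B.3, 13 and 2 (31.9% and 32.0%), and in shARID1A/B.2.3, 14 and 4 (35.2% and 34.0%). In shARID1A.2, 4 were higher and 15 lower (37.9% and 38.2%), in shARID1B.2, 5 and 11 (31.6% and 34.0%), and in shARID1A/B.4.2, 2 and 16 (35.1% and 36.1%). GDF15, a secreted stress cytokine, had 8 to 21 reads in Control, 249 to 304 in shARID1A.4, 41 to 51 in shARID1B.3 and 104 to 131 in shARID1A/B.2.3. ADM2, a peptide hormone, had 68 to 84 reads in Control and 1256 to 1309, 429 to 443 and 894 to 958 in the same conditions. SLC6A9, a glycine carrier, was higher in all 6, by 1.16, 3.16, 1.01, 0.92, 2.98 and 0.51. Lower by 1 or more in shARID1A.4 were 3 of the list, named after their values were seen: SLC38A2, an amino acid carrier, at -1.45, KLHL24 at -1.27 and GADD45A, a growth arrest gene, at -1.56.

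The arm of the unfolded protein response that runs through ATF6 and XBP1 was listed with 18 genes, sensors and factors as well as chaperones and degradation genes. In shARID1A.4, 3 were higher and 14 lower (all genes 37.0% and 36.6%), and in shARID1A/B.2.3, 4 and 13 (35.2% and 34.0%). In shARID1B.3 it was 5 and 8, or 27.8% and 44.4%, which lies near the 31.9% and 32.0% of all genes. The median log2 fold change of the list was negative in all 6 conditions, so its fall was not particular to the raised ones. HYOU1, a chaperone of the endoplasmic reticulum, and EDEM1, which helps to degrade misfolded glycoproteins, were lower in all 6 conditions. The regulators of the arm went the other way in the raised conditions. XBP1, its transcription factor, had 2998 to 3094 reads in Control, 6315 to 6819 in shARID1A.4, 4232 to 4374 in shARID1B.3 and 5631 to 5783 in shARID1A/B.2.3. It lay below Control in shARID1A.2, shARID1B.2 and shARID1A/B.4.2, at 1664 to 1735, 2226 to 2321 and 1942 to 2035 reads. ATF6, the other factor, was higher in the raised conditions by 0.27, 0.13 and 0.10, and ERN1, which encodes the sensor IRE1, by 1.06, 0.18 and 0.59. ATF6 and ERN1 were singled out after their values were seen, and with XBP1 they are the 3 genes higher in shARID1A.4.

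NRF2 targets, the antioxidant genes, were raised in part of these conditions. Of 12 genes, 11 were higher and 0 lower in shARID1A.4, 9 higher and 3 lower in shARID1B.3, and 12 higher in shARID1A/B.2.3, beside the shares of all genes just given. HMOX1, haem oxygenase, had 90 to 108 reads in Control, 1876 to 2025 in shARID1A.4 and 2184 to 2446 in shARID1A/B.2.3, but 46 to 53 in shARID1B.3. OSGIN1, an oxidative stress gene, was higher in shARID1B.3 by 1.35, and NQO1, a quinone reductase, had 3359 to 3736 reads there against 1745 to 1818 in Control. The 25 genes of amino acid sensing and mTORC1, the 15 other eIF2 and eIF2B genes and the 9 other cytosolic and 17 mitochondrial synthetases had medians between -0.18 and 0.25 in every condition. Among them EIF2B2, a subunit of the exchange factor of eIF2, was lower in all 6, by 0.35 to 1.07. The p53 targets had medians between -0.50 and 0.07.

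**Figure D5:**
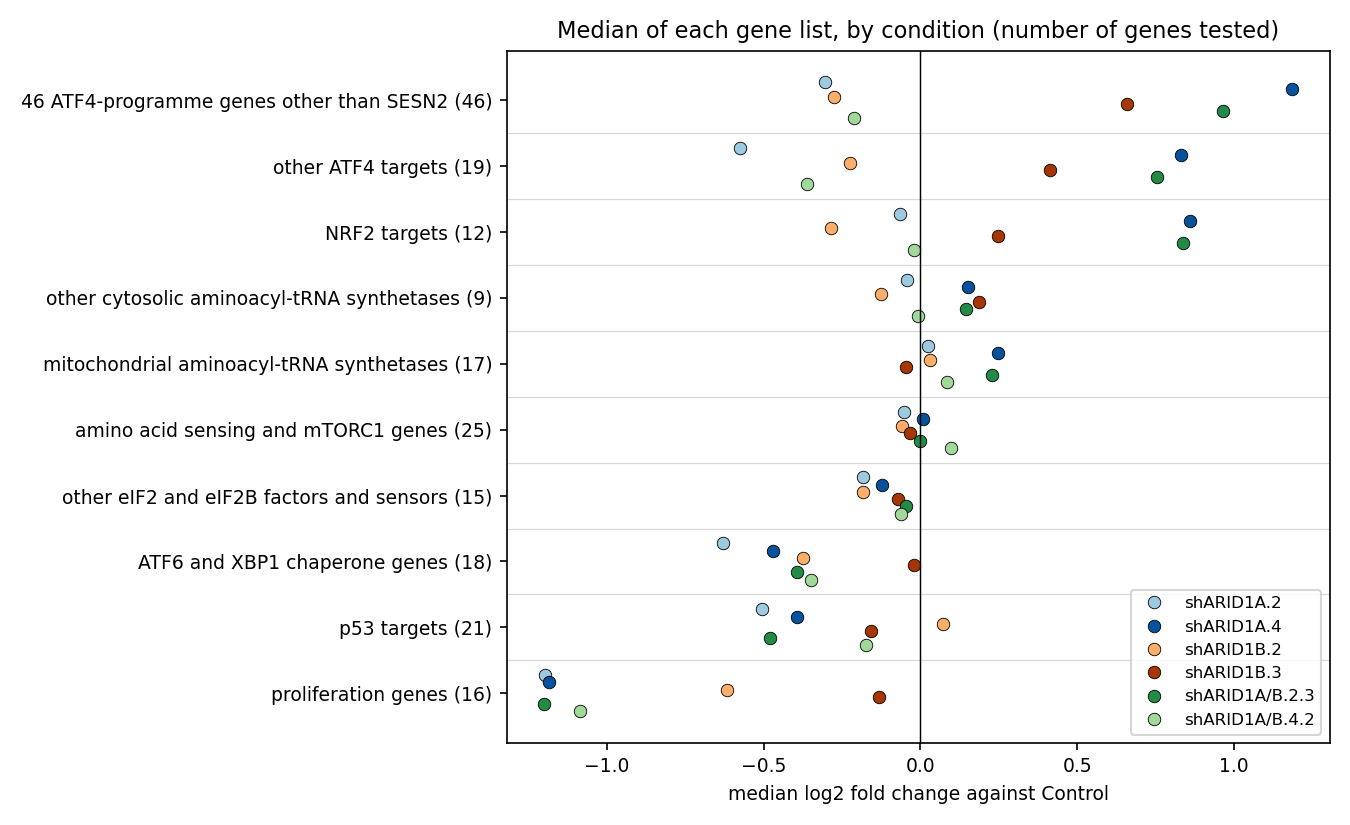
Median log2 fold change against Control of 10 gene lists (rows, with the number of genes tested) in the 6 silenced conditions (colours). The ATF4 programme, its further targets and the NRF2 targets lie to the right in shARID1A.4 and shARID1A/B.2.3 and less so in shARID1B.3, the chaperone list lies below 0 in all 6, and the proliferation genes lie between -1.20 and -1.08 in 4 conditions.

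Proliferation genes moved differently from the programme. The 16 genes of that list were all lower in 5 conditions, against 34.0% to 38.2% of all genes. In shARID1B.3, 9 of the 16 were lower, against 32.0% of all genes. The summed level of the list was 172918 to 174710 reads in Control, 159339 to 162691 in shARID1B.3, 113042 to 114920 in shARID1B.2 and 75150 to 87937 in the other 4 conditions. The 16 genes were thus similarly low in shARID1A.2 and shARID1A.4, whose median difference in the programme was 1.58. The part of cell number or growth rate in the levels given here was not tested.

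The libraries held 27954334 to 41077638 reads, and the shARID1B.3 libraries, at 35048596 to 41077638, lay above the 30579746 to 34973565 of Control. The adrenergic neuroblastoma markers were well expressed in Control, from 476 reads for DBH to 124192 for MYCN, and MYCN itself was higher in shARID1A.4 and shARID1A/B.2.3, by 1.77 and 0.83, and by 0.36 in shARID1B.3. The 6 markers of blood, endothelial and epithelial cells summed to 546 to 567 reads in Control and to 172 to 477 in the silenced conditions. In Control PECAM1 was at 0 and PTPRC was the highest, at 399 to 426, against 57 to 309 in the silenced conditions. EPCAM did not follow the sum. It had 61 to 75 reads in Control, 207 to 227 in shARID1A.2, 107 to 147 in shARID1A.4 and 99 to 112 in shARID1B.2. In shARID1B.3 it had 115 to 121, in shARID1A/B.4.2 150 to 177 and in shARID1A/B.2.3 58 to 64. Fewer cells of a kind and less RNA per cell cannot be told apart in such bulk libraries. Of the 47 genes, 20 have exons that overlap those of another gene in GENCODE release 29, 19 of them on the opposite strand, among them ATF5, DDIT4, SLC7A11 and CEBPB, and reads of such partners could not be separated here.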

How the data were processed

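RNA of SK-N-BE(2) cells was sequenced from TruSeq Stranded mRNA libraries, 3 per condition, grouped here by the GEO labels alone. The submitters' processing notes name STAR 2.5.3a, RSEM 1.3.0, DESeq2 1.26.0 and GRCh38. The values of the deposited table are of the unit signal: the authors divided gene-level reads by 1 size factor per library before they deposited them. Reads were recovered whole for 100% of values (tolerance 0.1 read), with size factors of 0.841 to 1.295. Since the values are not raw counts, limma 3.58.1 (R 4.3.3) with a trend was fitted on log2(value + 1) over all 21 libraries and 7 conditions, without covariates, to the 18584 genes that passed the edgeR 4.0.16 filter on recovered reads. P-values were adjusted by Benjamini-Hochberg over all these genes and called under 0.05. Fold changes on this scale understate those of low genes. The genes and lists were chosen with earlier results of these data known. Named with values were the sestrins, the usual readouts of the response, genes called in 1 direction in all 6 conditions, genes changed by 1 or more in at least 2 conditions, genes called in opposite directions within a label, and at most 3 genes of each further list. Tested on simulated data for shARID1A.2 against Control (18584 genes), the fit called 100 of 100 genes changed by 1 on the log2 scale, 86 of 100 changed by 0.5 and 23 of 18384 unchanged genes. The changed genes there were few and drawn from well-expressed genes, with the same spread set for all genes. These rates therefore do not carry over to low genes or to data in which most genes are called. Alternatives were other scalings, filters, pseudocounts and tools (edgeR quasi-likelihood, DESeq2 1.42.0), a replicate block and leaving out each library. Replicate pairs differed beyond counting error (chi-square per degree of freedom 1.55 to 4.26 over 21 pairs). Tables of the authors' own comparisons hold fold changes and p-values and were not used.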

Additional observations from a re-analysis of the deposited data

Results flagged for a closer look

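The conditions of 1 label gave opposite calls against Control for many of the 46 genes. For shARID1A.2 and shARID1A.4 these were 27 genes, for shARID1B.2 and shARID1B.3 they were 24, and for shARID1A/B.2.3 and shARID1A/B.4.2 they were 30. They stand out because the effects of conditions that carry the same label differed in sign, and the difference itself was tested by the direct comparison of those conditions, in which 44, 40 and 42 genes were higher in shARID1A.4, shARID1B.3 and shARID1A/B.2.3 (limma, Benjamini-Hochberg adjusted p under 0.05).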

How the results depend on the processing

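The direction of each median of the 46 genes was the same under every alternative run, and what moved was mostly the size of the lower medians. Scaling to total reads gave medians of -0.1344 and 1.2071 in shARID1A.2 and shARID1A.4, -0.1395 and 0.6866 in shARID1B.2 and shARID1B.3, and 0.9993 and -0.0234 in shARID1A/B.2.3 and shARID1A/B.4.2, of 1.4324, 0.8338 and 0.9901 between the conditions of a label, and 0.1949 for shARID1A/B against shARID1B. Upper-quartile factors gave -0.124, 1.2709, -0.1574, 0.7178, 1.0389 and -0.0482, then 1.4858, 0.8828 and 1.0545, with 0.1957 for shARID1A/B and 0.2399 for shARID1A against shARID1B. TMM factors gave 1.2045 in shARID1A.4, -0.248 in shARID1B.2, 0.685 in shARID1B.3 and -0.1755 in shARID1A/B.4.2. The edgeR quasi-likelihood test gave -0.2827 in shARID1A.2, 1.2048, -0.248, 0.6851 and -0.1742 in the same conditions. Requiring at least 10 reads in every library gave 1.1553 in shARID1A.4, 0.6416 in shARID1B.3 and 1.1109 for shARID1A/B.2.3 against shARID1A/B.4.2.

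Counts moved less. Genes higher in shARID1A.2 became 14 in place of 9 under either scaling. With total reads, shARID1A/B.4.2 had 17 higher, 21 lower and 2 higher by 1 or more in place of 11, 32 and 1. Upper-quartile factors left 1 gene lower in shARID1A/B.2.3 and 5 lower in shARID1A against shARID1B. The filter at 10 reads left 1 gene higher by 1 or more in shARID1B.2, and a pseudocount of 5 left 0 lower by 1 or more in shARID1B.3 against shARID1B.2.

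Of 552 single-gene results, 17 reversed in sign under total reads or upper-quartile factors (4 in shARID1A.2, 5 in shARID1B.2 and 8 in shARID1A/B.4.2), none over 0.1736 in size. Total reads gave, in shARID1A.2, CEBPB 0.0195, PCK2 0.0694, NARS1 0.0180 and LARS1 0.0265, and upper-quartile factors 0.0299, 0.0798, 0.0284 and 0.0370. In shARID1B.2 total reads gave ATF4 0.0738, EIF4EBP1 0.0099, WARS1 0.0524, NARS1 0.0099 and IARS1 0.0216, and upper-quartile factors ATF4 0.0559, WARS1 0.0345 and IARS1 0.0037. In shARID1A/B.4.2 total reads gave CEBPG 0.0878, ALDH1L2 0.0135, SLC7A5 0.0230, GARS1 0.0443, MARS1 0.1042, NARS1 0.1158, EPRS1 0.0178 and LARS1 0.0653, and upper-quartile factors CEBPG 0.0630, GARS1 0.0195, MARS1 0.0794, NARS1 0.0910 and LARS1 0.0405. The cause was not tested.

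Leaving out each library in turn, the medians ranged from -0.3201 to -0.2672 in shARID1A.2, 1.1686 to 1.2004 in shARID1A.4, -0.2851 to -0.2521 in shARID1B.2, 0.6487 to 0.6705 in shARID1B.3, 0.958 to 0.9747 in shARID1A/B.2.3 and -0.2299 to -0.1969 in shARID1A/B.4.2. They ranged from 1.5695 to 1.5943, 0.9213 to 0.9617 and 1.1263 to 1.16 between the conditions of a label, and from 0.1847 to 0.2026 for shARID1A against shARID1B, 0.0561 to 0.0727 for shARID1A against shARID1A/B and 0.1617 to 0.1763 for shARID1A/B against shARID1B. Genes lower in shARID1A/B.2.3 ranged from 1 to 2, with 1 without Control replicate 3 or shARID1A/B.2.3 replicate 2, and genes lower by 1 or more in shARID1B.3 against shARID1B.2 from 0 to 1, with 0 without shARID1B.3 replicate 3.

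Same-numbered libraries did not deviate together (3 of 63 pairs over 0.1, mean correlation -0.0022), so the numbers do not pair them. With the replicate block, 9 genes were higher and 29 lower in shARID1A.2, and no count of the 46 genes moved by over 1.5 times.

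Over all genes, the filter at 10 reads, which tests fewer genes, left 2768, 2505, 1114, 1168, 1814 and 1952 changes of 1 or more against Control in place of 4618, 3969, 2226, 2189, 2999 and 3423. It left 2766, 1511 and 2524 between the conditions of a label in place of 4442, 2542 and 4139, and 486, 241 and 789 between labels in place of 1121, 673 and 1492, where a pseudocount of 5 left 660 for shARID1A against shARID1B and 385 for shARID1A against shARID1A/B.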
